A study of Mus musculus with 10 samples.

Results

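The genes of this report build the desmosome and the intermediate filaments, which together tie cardiomyocytes to each other and carry force through the cell. The 10 genes were taken by symbol from the deposited table of 23337 genes: the desmosomal genes Dsp, Jup, Pkp2, Dsg2 and Dsc2, and the intermediate filament genes Des, Vim, Synm, Nes and Lmna. All 10 were found, and all 10 had an adjusted p-value, as did 14056 genes of the table.

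Wild-type mice received adeno-associated virus of serotype AAV9 on postnatal day 1, at 5e+08 viral genomes per gram, and their cardiomyocytes were sorted on postnatal day 14. The virus of the control group carried GFP, and that of the other group carried dnMKL1 with GFP, both behind the cTNT promoter, which is active in cardiomyocytes. Each group had 5 biological replicates. MKL1, also named MRTF-A, is a coactivator of serum response factor (SRF) that is released to the nucleus when free actin monomers fall, and dnMKL1 stands for a dominant-negative form of it. All the mice kept their own Mkl1 gene, and which cells the sort kept beyond cardiomyocytes is not stated.

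In the heart, desmosomes sit in the intercalated disc, the end-to-end contact between cardiomyocytes. The cadherins desmoglein-2 (Dsg2) and desmocollin-2 (Dsc2) bridge the gap between cells, plakoglobin (Jup) and plakophilin-2 (Pkp2) bind their tails, and desmoplakin (Dsp) links these to filaments of desmin (Des). Desmin filaments run from the disc to the Z-discs and the nucleus, where the lamins line the inner membrane. Inherited loss of desmosomal proteins is known as a cause of arrhythmogenic cardiomyopathy, and mutations of DES and LMNA cause dilated cardiomyopathy.

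Values per library are not analysed here, so each gene is described by the authors' base mean, fold change and standard error (SE). Size factors recovered from the table ran from 0.660 to 1.28 in GFP and from 0.809 to 1.58 in dnMKL1 libraries, for estimated totals of 8803029 to 17228615 counts. The authors' deposited table gave Mkl1 a log2 fold change of 9.80 (SE 0.15), vector reads included, and this sets the direction: positive means higher with dnMKL1. Srf had -0.80 (SE 0.10) in the authors' deposited table. The cardiomyocyte identity of the cells was plain, with base means of 594986 for Myh6 and 218748 for Actc1 in that table. Each group's mean, called implied below, was worked out from the fold change together with the base mean. The SD beside each is a fitted one, from the negative binomial variance that the deposited SE implies, and not a spread measured over libraries. It rests on the same SE as the p-value, so whether the SDs of the groups overlap is not separate evidence of a difference.

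Per kilobase of annotated exon, Des stood first in GFP cardiomyocytes with an implied mean of 8137 ± 889 normalized counts (fitted SD, n = 5). Jup followed at 790 ± 51.3 per kilobase, then Pkp2 at 654 ± 61.6, Dsp at 570 ± 91.9 and Dsc2 at 475 ± 44.2. Desmin message per length was 10.3 times that of Jup, the highest desmosomal member, and 6.36 times with the longest transcript as length. Lmna came next at 371 ± 45.0 per kilobase, ahead of Dsg2 at 255 ± 25.1. The filament genes Vim (45.3 ± 14.8), Nes (24.7 ± 7.15) and Synm (3.17 ± 1.02) closed the order in the same unit. With these lengths, only the neighbours Pkp2 and Dsp lay closer in GFP libraries than the larger of their fitted SDs. In dnMKL1 libraries Dsp, at 771 ± 124 per kilobase, passed Pkp2 at 665 ± 62.7, and Lmna passed Dsc2, at 605 ± 72.9 against 386 ± 36.1. There the gaps from Dsp to Pkp2 and from Pkp2 to Lmna were within the larger SD. Lengths are of all annotated exons of a gene in GENCODE M21, and the order depends on that choice. With the longest transcript instead, Dsp stayed below Pkp2 in dnMKL1 libraries, at 776 ± 125 against 1217 ± 115 per kilobase. Lmna then stood just above Dsc2 in GFP libraries already, at 549 ± 66.5 against 542 ± 50.4, a gap within the larger SD.

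**Figure D1:**
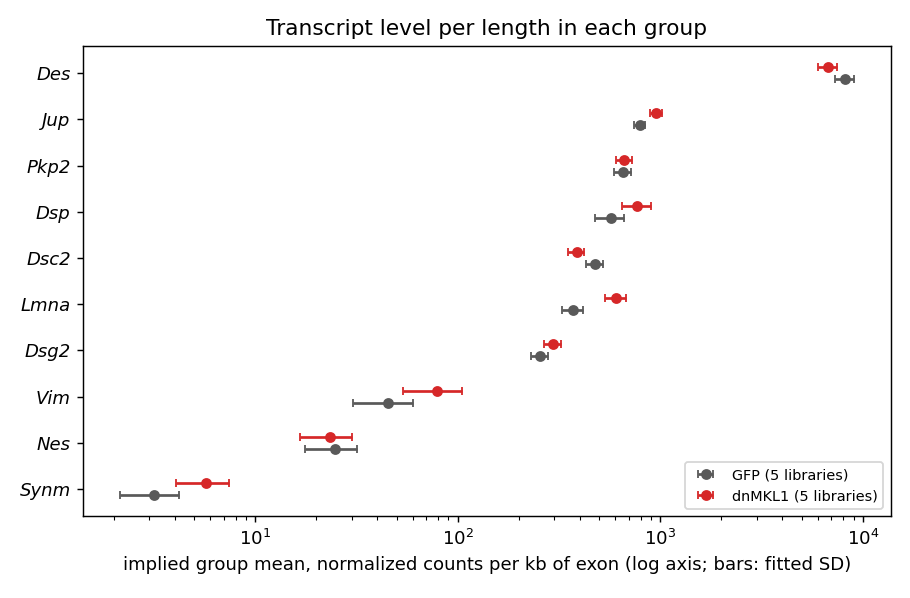
Implied group means of the 10 members in normalized counts per kilobase of exon, on a log axis, for GFP (grey) and dnMKL1 (red) libraries, 5 each; bars are fitted SDs. Des lies at 8137 and 6755, the desmosomal genes and Lmna between 255 and 955, and Vim, Nes and Synm below 80.

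Of the 10 members, 5 were higher with dnMKL1 at an adjusted p-value under 0.05 in the authors' deposited table: Lmna, Synm, Vim, Dsp and Jup. Another 2, Des and Dsc2, were lower, and Pkp2, Dsg2 and Nes did not pass. Over all genes 34.1% passed, 16.6% higher and 17.4% lower. Abundant genes passed more often: 54.5% did among the 1986 genes with base means from 1000 to 10000, where 4 of 6 members passed, a share near that background. By direction, 3 of these 6 members were higher and 1 lower, beside 14.4% and 40.1% of the class. The median log2 fold change of the members was 0.24, against 0.021 over all genes tested and -0.13 in that class. The largest fold of the 10 in either direction was 1.81 (Synm).

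All directions are relative to the authors' scaling. Summed over all genes, implied means came to 13330302 normalized counts with GFP and 10915829 with dnMKL1. Scaling both groups to equal totals adds 0.29 to every log2 fold change. Under it 7 members were higher and 0 lower, beside 40.4% and 6.60% of all genes: Des and Dsc2 no longer passed, and Pkp2 and Dsg2 did.

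**Figure D2:**
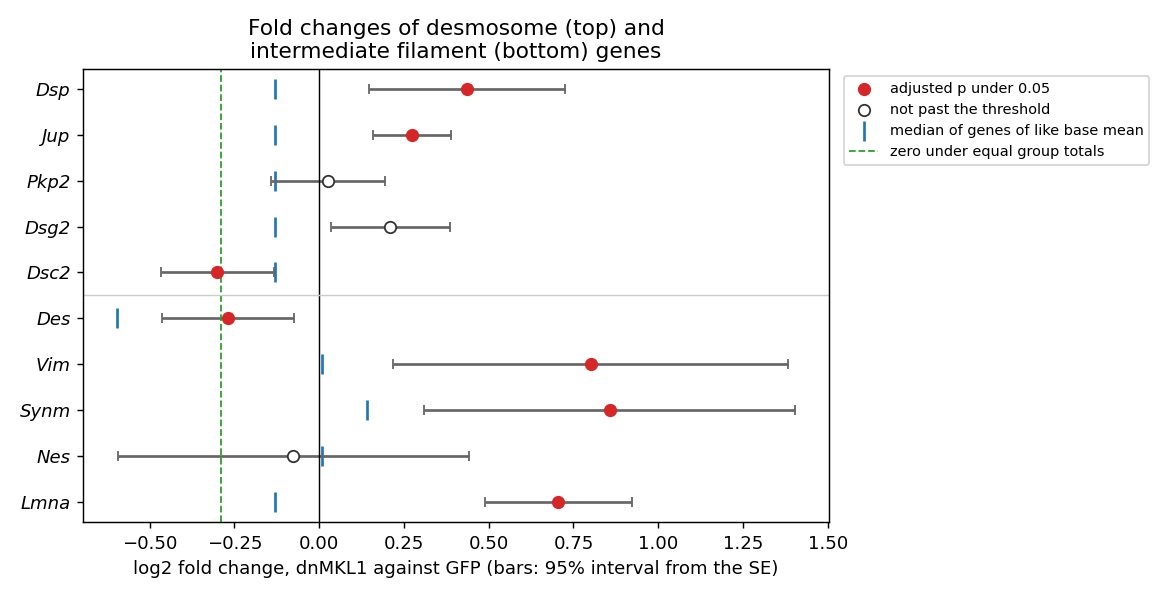
Deposited log2 fold change of each member with its 95% interval from the SE (horizontal axis), desmosomal genes above and filament genes below. Filled points pass an adjusted p-value of 0.05; blue ticks mark the median of the gene's class of base mean, and a dashed line is where zero falls when group totals are set equal, close to Dsc2 and Des.

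The cytoplasmic plaque of the desmosome was higher at Dsp and Jup and not detectably changed at Pkp2. Desmoplakin, the plaque's anchor for filaments, had implied means of 5506 ± 888 normalized counts in GFP and 7445 ± 1200 in dnMKL1 libraries (fitted SD, n = 5 each). That is a rise of 1.35-fold (95% interval 1.11 to 1.65), with a log2 fold change of 0.44 (SE 0.15) and an adjusted p of 0.0118 in the authors' deposited table. The fitted SDs of the groups overlap. Plakoglobin, which also serves adherens junctions and is a relative of beta-catenin, went from 5083 ± 330 to 6148 ± 397 normalized counts. Its rise was smaller at 1.21-fold (95% interval 1.12 to 1.31), yet more certain, with an SE of 0.059 and an adjusted p of 3.0e-05 in the authors' deposited table. A smaller SE than that of Jup was found for 5.14% of genes in its class of base mean. Pkp2, which clusters the cadherin tails and recruits desmoplakin, had 3503 ± 330 and 3567 ± 336 normalized counts. Its log2 fold change was 0.026 (SE 0.086), with an adjusted p of 0.869 in the authors' deposited table. Its 95% interval ran from 0.906 to 1.14-fold and overlaps that of Dsp; the difference between them was not tested.

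Of the cadherin pair, Dsc2 was lower and Dsg2 did not pass. Dsc2 fell 1.23-fold, from 2508 ± 233 to 2036 ± 190 normalized counts, with a log2 fold change of -0.30 (SE 0.09) and an adjusted p of 0.00208 in the authors' deposited table. Dsg2 was at 2108 ± 207 in GFP and 2437 ± 239 in dnMKL1 libraries, a log2 fold change of 0.21 (SE 0.09) that just missed the threshold, with an adjusted p of 0.0558 in the authors' deposited table. Their groups' fitted SDs do not overlap for Dsc2 and do for Dsg2. The ratio of Dsg2 to Dsc2 per kilobase was 0.536 in GFP and 0.764 in dnMKL1 libraries, a log2 change of 0.51. A ratio within a group does not depend on library scaling. The 95% intervals of the 2 fold changes, 1.02 to 1.31 for Dsg2 and 0.723 to 0.911 for Dsc2, do not overlap, but the difference itself was not tested, since the table holds no covariance between genes.

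The 5 desmosomal genes had a summed implied mean of 2744 normalized counts per kilobase in GFP and 3072 in dnMKL1 libraries, or 3752 in the latter with equal totals. The shares of each gene in that sum do not depend on library scaling. The share of Dsc2 in that sum went from 17.3% to 12.6% and that of Dsp from 20.8% to 25.1%. Jup stayed the largest share at 28.8% and 31.1%, Pkp2 went from 23.8% to 21.7%, and Dsg2 held 9.29% and 9.59%. With the longest transcript as length the share of Dsp went from 13.5% to 16.3% and that of Dsc2 from 12.7% to 9.21%, in the same directions. These shares are descriptions of group means with no test.

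On the mm10 build of the authors (coordinates of GRCm38 from GENCODE M21), Dsp lies at chr13:38151294-38198577 on the plus strand, Jup at chr11:100368958-100397763 on the minus strand and Pkp2 at chr16:16213318-16272712 on the plus strand. The cadherins Dsc2 (chr18:20030633-20059554, minus strand) and Dsg2 (chr18:20558074-20604521, plus strand) lie in one cluster with the skin desmogleins and desmocollins. Genes on the other strand share 3.99% of the exonic bases of Dsg2, 5.17% of those of Dsp and, among the filament genes, 5.86% of those of Des. The gene that overlaps Des, Gm15179, had a base mean of 9.64 and a log2 fold change of 0.94, and did not pass. Whether the authors' counting used strand is not given in the sources used here.

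Other desmosome genes were mostly at or near 0 in these cells. Of 13 listed, 8 had no adjusted p-value, Pkp1 among them at a base mean of 0, and 0 of the remaining 5 passed in the authors' deposited table (0 also at an unadjusted p under 0.05). Genes of stratified epithelia such as Dsg3 and Dsc1 had base means of 0.396 and 0.293. A base mean of 100 or more was reached by 2, Perp, a membrane protein of desmosomes, and Pkp4, a plakophilin relative. In the authors' deposited table they stood at 0.088 (SE 0.144) and -0.17 (SE 0.14) on the log2 scale, and with equal totals Perp passed at 0.38.

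The adherens junction shares the intercalated disc with the desmosome, and the 2 mix there in the area composita. Of 12 such genes, 4 were higher and 1 lower in the authors' deposited table, beside 16.6% and 17.4% of all genes. Their median log2 fold change was 0.16. With equal totals 10 were higher and 0 lower, beside 40.4% and 6.60% of all genes. All 12 had base means of 397 or more. Genes of such levels passed more often, 39.3% from 100 to 1000 and 54.5% from 1000 to 10000 in the authors' deposited table. Tmem43 is a membrane protein of the nuclear envelope whose mutation is another cause of arrhythmogenic cardiomyopathy. It was counted in this list of 12 and not with the envelope proteins below. It rose 1.70-fold (log2 0.77, SE 0.12, adjusted p 3.0e-09 in the authors' deposited table). N-cadherin (Cdh2), the adhesive protein of that junction, rose 1.19-fold, and Arvcf, a catenin that binds cadherin tails, 1.27-fold, with adjusted p-values of 0.0214 and 0.00950 in the authors' deposited table. Ctnnb1, beta-catenin, was the other higher gene at 1.13-fold, with an adjusted p of 0.0493 in that table. Ctnna1, alpha-catenin, which connects the complex to actin, fell 1.24-fold (adjusted p 0.00267 in the authors' deposited table) and stood at -0.018 on the log2 scale with equal totals.

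Filament genes held the 3 largest folds of the 10 and the smallest p-value. Lmna encodes lamins A and C, the nuclear filaments of differentiated cells, and it rose from 2166 ± 263 to 3533 ± 426 normalized counts (fitted SD, n = 5 each). The fold was 1.63 (95% interval 1.40 to 1.89), with a log2 fold change of 0.71 (SE 0.11) and an adjusted p of 3.5e-09 in the authors' deposited table. The fitted ranges of the groups do not touch. Of genes with like base mean, 96.4% had a lower log2 fold change than Lmna. Of its B-type relatives, Lmnb1 fell to 0.666 of its GFP level (log2 -0.59, SE 0.23, adjusted p 0.0340 in the authors' deposited table) and Lmnb2 had a log2 fold change of 0.12 (SE 0.21) with an adjusted p of 0.726. The ratio of Lmna to Lmnb1 per kilobase was 10.6 in GFP and 25.9 in dnMKL1 libraries. With equal totals Lmnb1 no longer passed, at -0.30. Among 13 envelope proteins that bind or process lamins, 0 were higher and 2 lower in the authors' deposited table, beside 16.6% and 17.4% of all genes. These 13 leave out Tmem43, which rose and was counted with the junction genes. Of the 13, 4 had an unadjusted p under 0.05, and the median was -0.081. The lower ones were Tor1aip1, which binds A- and B-type lamins, at 1.29-fold (adjusted p 5.5e-06) and Banf1, the DNA-bridging factor of the envelope, at 1.25-fold (adjusted p 0.00485), both in the authors' deposited table. With equal totals neither passed, and of the 13 genes 4 were higher and 0 lower, beside 40.4% and 6.60% of all genes.

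Desmin is the main filament protein of muscle. It went from 30545 ± 3337 to 25358 ± 2771 normalized counts, a fall of 1.20-fold with a log2 fold change of -0.27 (SE 0.10) and an adjusted p of 0.0238 in the authors' deposited table. The fitted SDs of the groups overlap. This was a milder fall than that of most genes so abundant: the 140 genes with base means of 10000 or more had a median of -0.60, and 70.7% of them had a lower log2 fold change than Des. All 10 cardiomyocyte markers had negative fold changes in the authors' deposited table, 6 of them past the threshold, with a median of -0.45, and with equal totals 7 were negative and 4 passed. All 10 markers are in that class of 140 genes, of which 70.7% were called lower in the authors' deposited table. In this bulk RNA, fewer cells of a type and less RNA per cell cannot be told apart. Des gained on Myh6, the main adult myosin chain of mouse heart, by 0.60 and on cardiac actin Actc1 by 1.28, as log2 changes of their ratio. These were the markers that fell most of the 10, and on Tnnt2 the gain was 0.32. Mybpc3 (-0.11), Myl2 (-0.20) and Pln (-0.21) had milder log2 fold changes than Des in the authors' deposited table, and the other markers had larger falls. With equal totals the fold change of Des was 0.020.

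Synemin (Synm), a large filament protein that joins desmin and vimentin to other structures, was the rarest member. It rose 1.81-fold (95% interval 1.24 to 2.65) from 25.1 ± 8.06 to 45.5 ± 13.2 normalized counts (overlapping SDs), with an adjusted p of 0.00864 in the authors' deposited table. Exons of genes on the other strand share 5.37% (Gm45102) and 1.06% (Ttc23) of its exonic bases. Ttc23 itself had a log2 fold change of 0.091 and an adjusted p of 0.720 in the authors' deposited table. Syncoilin (Sync), a partner of desmin, had a log2 fold change of -0.0072 (SE 0.0887) in that table, and with equal totals it passed as higher, at 0.28.

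Vimentin and nestin mark cells other than mature cardiomyocytes: Vim is the filament of fibroblasts and endothelium, and Nes of progenitors and some vessels. Vim rose 1.74-fold (95% interval 1.16 to 2.61), from 215 ± 70.4 to 375 ± 121 normalized counts (overlapping SDs), with a log2 fold change of 0.80 (SE 0.30) and an adjusted p of 0.0236 in the authors' deposited table. Nes was at 159 ± 45.8 and 150 ± 43.6 normalized counts, with an adjusted p of 0.873 there and a wide 95% interval of 0.662 to 1.36-fold. Both varied far more than other genes: their SEs of 0.297 and 0.264 exceeded those of 95.9% and 94.3% of the genes in their class. Median SEs were 0.317 for endothelial, 0.184 for fibroblast, 0.199 for mural and 0.522 for macrophage markers. Of 10 endothelial markers 0 passed in the authors' deposited table (0 at an unadjusted p under 0.05), from -0.18 to 0.20 on the log2 scale, and their summed implied means were 3905 and 3925 normalized counts. The most abundant of them were Kdr and Fabp4, at 0.10 (SE 0.29) and -0.11 (SE 0.52) in the authors' deposited table. All 10 fibroblast markers had positive fold changes, 4 past the threshold in the authors' deposited table, and their sum went from 4309 to 6883 normalized counts, Col3a1 (0.44, SE 0.15) and Fbln1 (1.38, SE 0.16) leading in abundance; Col1a1 and Col1a2 were the others that passed. Mural markers had 3 higher and 1 lower of 9, from -1.06 to 2.01, with a summed 18254 and 15947. The higher ones were Cspg4 (2.01, SE 0.18), Myh11 (0.73, SE 0.20) and Tagln (0.72, SE 0.18) in the authors' deposited table. The lower one, Acta2, and Abcc9 were the most abundant, at -1.06 (SE 0.25) and 0.30 (SE 0.155) in the authors' deposited table. Acta2 went from 10454 to 4999 normalized counts and Abcc9 from 6332 to 7773, so these genes make up most of the mural sum. In GFP libraries the other mural markers were far rarer, with implied means from 46.0 (Tagln) to 501 (Cspg4). Which cells the Acta2 and Abcc9 counts come from was not tested, so the sum need not follow mural cells. The fall of the sum is that of Acta2, as 8 of the 9 mural markers had positive fold changes, and 5 of the 9 did not pass. Macrophage markers had 1 higher (Cd68, 1.03, SE 0.39) and 0 lower of 8, with a summed 153 and 135, led by Lyz2 (-0.55, SE 0.26) and Csf1r (-0.0065, SE 0.339) in that table. Cd68 was the only 1 of the 8 with a positive fold change, 7 were negative, and the median was -0.16. Beside these counts, 16.6% of all genes tested were higher and 17.4% lower in the authors' deposited table. With equal totals all 10 endothelial markers had positive fold changes, with a median of 0.32, and 0 passed. Under that scaling 7 fibroblast, 5 mural and 1 macrophage markers were higher, and 0, 1 and 0 lower, beside 40.4% and 6.60% of all genes. The part of these cell types in the values of Vim and Nes was not tested.

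**Figure D3:**
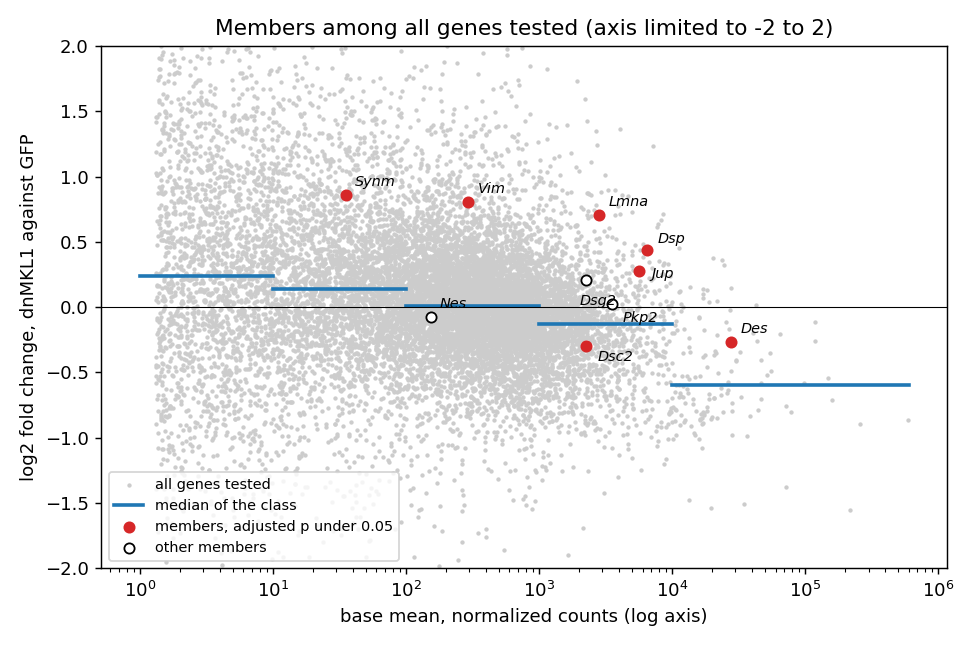
Log2 fold change (vertical axis) against base mean (log axis) for all genes tested (grey), with the members marked; blue bars are medians of genes in steps of base mean. Medians go from 0.23 at 1 to 10 to -0.60 at 10000 or more; Lmna and Dsp stand well above their class and Des above its own.

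The keratins Krt18 and Krt8 gave the largest changes among the other filament genes. Of 15 listed, 8 had an adjusted p-value, 2 were higher and 1 (Lmnb1) lower in the authors' deposited table. The keratin Krt19, with a base mean of 4.35, was at -0.65 (SE 0.67) on the log2 scale and did not pass. Krt7, with a base mean of 1.18, had no adjusted p-value. Krt18 and Krt8, the type I and type II keratins that pair in simple epithelia, rose 7.23-fold (95% interval 3.88 to 13.5) and 5.75-fold (95% interval 2.88 to 11.5). Their implied means went from 20.9 ± 11.0 to 151 ± 72.7 and from 7.05 ± 4.29 to 40.5 ± 20.2 normalized counts. The log2 fold changes were 2.85 (SE 0.46) and 2.52 (SE 0.51), with adjusted p-values of 1.0e-08 and 7.5e-06 in the authors' deposited table. The genes Krt8 (chr15:101996698-102004482) and Krt18 (chr15:102028180-102032027) lie close together. GENCODE lists a processed copy of Krt8 (Krt8-ps) that could share its reads, and whether it does was not tested. Of 8 epithelial and mesothelial markers 4 had an adjusted p-value, 0 passed (0 at an unadjusted p under 0.05), and the sum was 47.5 and 49.8 normalized counts. Wt1 and Msln, the most abundant, were at 0.065 (SE 0.373) and 0.050 (SE 0.477) in the authors' deposited table. Epcam was listed at 0, and Krt5, Krt14 and Cdh1 had base means of 0.0726, 0.326 and 0.0821. Schwann cell and neuron markers, whose cells also hold filaments of their own, had 2 higher and 0 lower of 5 with an adjusted p-value, and their sum went from 150 to 220 normalized counts. The higher ones were Tubb3, a neuronal tubulin, at 32.1-fold (95% interval 9.36 to 110) and S100b, a glial calcium-binding protein, at 6.28-fold (95% interval 2.75 to 14.3). Both were rare, with implied means of 0.784 and 25.2 normalized counts for Tubb3 and 2.40 and 15.1 for S100b, and their adjusted p-values were 4.8e-07 and 9.9e-05 in the authors' deposited table. Their folds were thus of the size of those of Krt8 and Krt18 or larger. Uchl1, among the most abundant of the list, was at 0.34 (SE 0.16) in that table and did not pass. Over all genes tested 16.6% were higher and 17.4% lower in that table. With equal totals 0 of the 4 epithelial and mesothelial markers and 3 of the 5 Schwann cell and neuron markers were higher, beside 40.4% of all genes. The part of these cells in the keratin values was not tested.

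Of 8 linkers and chaperones of the filaments, 1 was higher and 1 lower in the authors' deposited table (6 and 0 with equal totals), with 4 at an unadjusted p under 0.05 and a median of 0.13. Over all genes tested 16.6% were higher and 17.4% lower (40.4% and 6.60% with equal totals). Macf1, a giant linker of the plakin family that bridges actin and microtubules, rose 1.32-fold (adjusted p 0.0106 in the authors' deposited table). The small heat shock protein Hspb8, a partner of Bag3, fell 1.27-fold (adjusted p 0.0154 in that table) and stood at -0.052 on the log2 scale with equal totals.

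**Figure D4:**
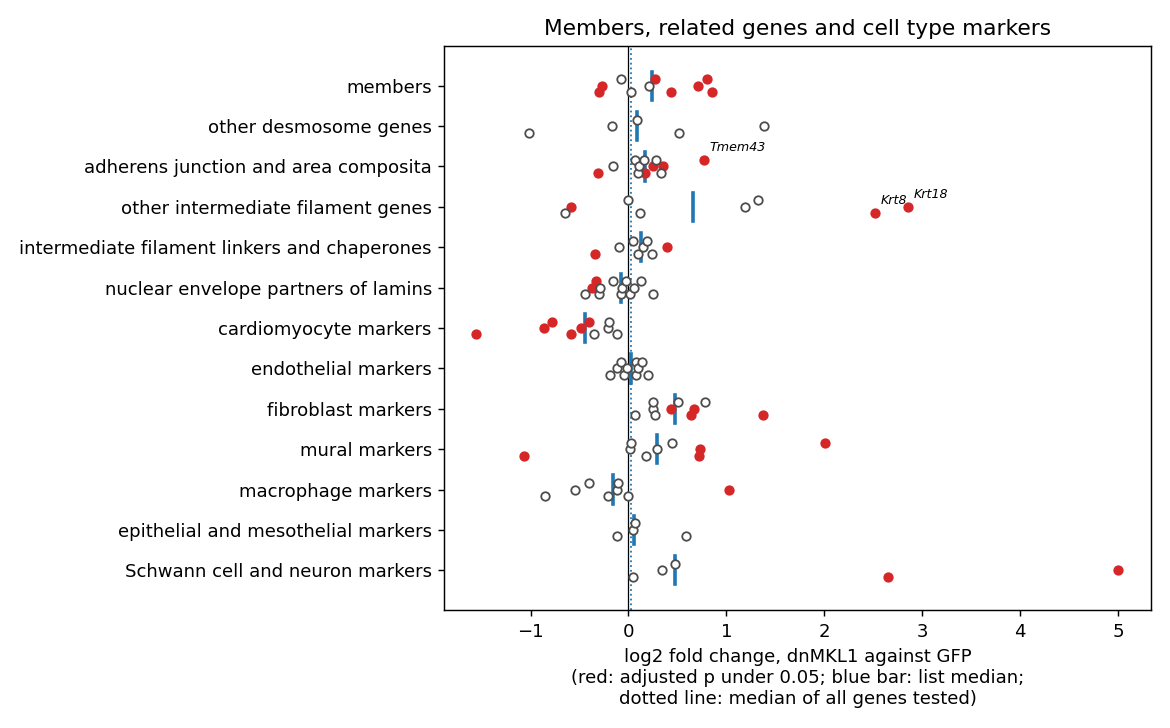
Deposited log2 fold change of each gene with an adjusted p-value, by list (rows); red points pass 0.05 and blue bars are list medians. Krt8 and Krt18 stand apart at 2.52 and 2.85, endothelial markers stay between -0.18 and 0.20, and cardiomyocyte markers lie below 0.

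Promoter sequences were searched because SRF, the partner of MKL1, binds the CArG box (CC, then A or T only, then GG). RefSeq windows on GRCm38.p6, from 250 bases before to 50 after a start site, matched 7 of the 10 members by symbol, with 8 windows. Those of Pkp2, Dsg2 and Dsc2 were not matched. A perfect CArG box, on either strand, was in 0 of the 8 windows and in 1.63% of all 32851. With 1 mismatch allowed, a match was in 3 of the 8 windows, with 1 window each for Lmna, Synm and Nes, and in 21.1% of all windows. The TEAD site MCAT (CATTCC, either strand) was in 0 of the 8 and in 14.7% of all. These are matches of letters in a short window, and say nothing of binding.

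The 250 bases before a start site are shown for the filament genes at the extremes of the results, 5′ to 3′ on the gene's strand. A near-CArG match is in capitals. Lmna, which had the smallest p-value, is shown at the inner of the 2 start sites matched (chr3:88493313-88493562, minus strand). Synm had the largest fold (chr7:67759743-67759992, minus strand), and Des was the most abundant (chr1:75360042-75360291, plus strand).
Lmna: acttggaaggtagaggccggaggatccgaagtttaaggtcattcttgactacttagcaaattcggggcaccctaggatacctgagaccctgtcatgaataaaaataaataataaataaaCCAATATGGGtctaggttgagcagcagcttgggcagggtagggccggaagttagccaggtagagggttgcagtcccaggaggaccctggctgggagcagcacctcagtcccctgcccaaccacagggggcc
Synm: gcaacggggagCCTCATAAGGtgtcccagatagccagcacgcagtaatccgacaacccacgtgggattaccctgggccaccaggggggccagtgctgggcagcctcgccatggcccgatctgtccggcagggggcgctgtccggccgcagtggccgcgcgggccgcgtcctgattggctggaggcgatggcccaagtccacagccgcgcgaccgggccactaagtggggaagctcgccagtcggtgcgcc
Des: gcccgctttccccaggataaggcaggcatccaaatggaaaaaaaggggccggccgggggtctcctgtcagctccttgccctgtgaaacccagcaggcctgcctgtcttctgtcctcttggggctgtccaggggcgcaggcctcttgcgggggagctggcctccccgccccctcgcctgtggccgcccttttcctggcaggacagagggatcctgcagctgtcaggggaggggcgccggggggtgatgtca
The match CCAATATGGG of Lmna begins 131 bases before this start site and the match CCTCATAAGG of Synm 239 bases before its own. The other window of Lmna, before the start site upstream of this one (chr3:88503353-88503602), holds no match. The Des stretch, 67.2% G and C, holds none. Lmna begins further upstream in GENCODE M21, at chr3:88509956, and the bases before that start were not searched. The match of Nes (CCTTAAAAGC) lies 35 bases after its start site. Synm and Lmna rose and Nes did not pass, while Vim, Dsp and Jup rose with no such match in their windows. The genes themselves span chr3:88480147-88509956 for Lmna, chr7:67730160-67759742 for Synm, chr1:75360329-75368579 for Des, chr2:13573927-13582826 for Vim and chr3:87971078-87980451 for Nes in GENCODE M21.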

How the data were processed

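The RNA came from cardiomyocytes of 5 GFP and 5 dnMKL1 mouse samples. Per the labels' protocols, 10 ng of RNA was amplified over 8 cycles with a SMART-Seq kit and 500 pg of cDNA entered Nextera XT. Per the submitters' processing notes, STAR 2.5.3a, Subread 1.5.2 (featureCounts) and the mm10 build were used; annotation and strand are not given in the sources used here. Per the file headers, the table used is a DESeq2 result. The authors' base mean is a signal, the mean of counts over size factors. Fold changes and their SEs were deposited on the log2 scale. The authors' Wald statistic is a score, the one over the other. The deposited p-value is that of the Wald test; Benjamini-Hochberg adjustment over 14056 genes was recomputed here with a largest gap of 1.4e-07. All calls use the authors' adjusted p-value under 0.05. The planned count tests need counts per library, which are not analysed here.

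Computed here (Python 3.11.15, scipy 1.17.1) were implied group means, 95% intervals, levels per kilobase, and fitted SDs. The last solve the negative binomial variance for the deposited SE with the recovered size factors, taking 1 dispersion per gene in both groups; the authors' fit may have shared it across genes. The SE formula was tested on simulated counts; the size factors and fitted SDs themselves were not. Intervals cover the error in the SE and no shared bias; reads lack molecular identifiers. Whether the replicates are separate animals is not stated beyond the word biological. Members, gene lists and tests were chosen with earlier results of these data known. Named genes were all members, the up to 4 genes of each related list with the smallest adjusted p-values among those passing, the 2 most abundant of each marker list, Mkl1 and Srf. Ctnnb1, Perp, Pkp4, Sync, Lmnb2, Tubb3, S100b, Cd68, Cspg4, Myh11, Tagln, Col1a1, Col1a2 and genes quoted for a low base mean or an overlap were named after their values were seen. Of the listed genes, Syne3 was not matched in the table. The value of 1 gene that the rule names is not reported here.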

Additional observations from a re-analysis of the deposited data

How the results depend on the processing

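No paired analysis was possible because the table holds no values per replicate number. For the same reason the fits without each replicate in turn, the replicate block and the edgeR test were not run, and whether 1 library decides a value is unknown. The 7 members past the threshold became 4 at an adjusted p-value under 0.01 (Des, Vim and Dsp no longer passed) and 3 with an absolute log2 fold change of at least 0.5 (Lmna, Vim and Synm), since fewer genes can pass. They were 8 under 0.1, where Dsg2 was added, and 6 where a base mean of at least 100 was asked, which leaves out Synm. Adjusting over all p-values, or centring on the median, changed no call of the 10. The 12 related genes past the threshold became 7 under 0.01, 4 with the minimum fold and 25 with equal totals, none of them lower. Over all genes 4792 became 2735 with the minimum fold; with equal totals 5685 were higher and 927 lower, beside 2340 and 2452. Equal totals, by the shift alone, turned the sign of Des to 0.020 and of Nes to 0.21, and those of Fabp4 to 0.18, Csf1r to 0.28 and Pkp4 to 0.12, with none of these past the threshold. Sync also turned, to 0.28, and passed (adjusted p 0.00471), as did Pkp2 (0.31), Dsg2 (0.50), Abcc9 (0.58), Uchl1 (0.63) and Perp (0.38). Of the other named genes, 9 lost their call with the minimum fold, 6 under 0.01 and 5 with equal totals, and Ctnnb1 also lost it when adjusted over all p-values and when centred. These counts leave out Tubb3, S100b, Cd68, Cspg4, Myh11, Tagln, Col1a1 and Col1a2. Of those, Cd68 (adjusted p 0.0283 in the authors' deposited table) does not pass under 0.01 either. Which scaling is closer to RNA per cell was not tested. CArG boxes were in 0 members' windows with a perfect match and 3 with 1 mismatch. With the longest transcript as length, an alternative added after seeing the data, 8 of 10 members kept their rank of level.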
